A study of Mus musculus with 5 samples.

Results

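Tropomyosin 1 and 2 (Tpm1, Tpm2), caldesmon (Cald1), alpha-actinin 1 (Actn1), vinculin (Vcl), the smooth-muscle and non-muscle essential myosin light chain (Myl6) and pyruvate kinase M (Pkm) are genes that muscle and other cells splice differently. These 7 genes were taken by symbol from the 55471 genes of the series, with all 81 of their annotated transcripts among 142647. For each gene, transcripts were sorted by exon structure into a muscle and a non-muscle form, and the share of the muscle form was compared between colon of propyzamide-treated and of vehicle-treated mice. A count was assigned to 62 of the 81 transcripts in at least 1 library.

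The propyzamide group held 3 libraries and the vehicle group 2, each made from RNA of a frozen piece of colon. All mice were male C57BL/6, 11 weeks of age, and all had received TNBS, the hapten trinitrobenzene sulfonic acid, which provokes colitis, with colon collected after 3 days. Propyzamide, used as a herbicide, stops plant microtubules from assembling, and the series presents it as examined in a model of inflammatory bowel disease. Colon without TNBS was not analysed here, and the sources used here do not give the dose, the route or the stretch of colon. Nothing states that each library is from a separate animal, and p-values therefore cover only the spread among these 5 samples, which may be technical.

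On actin filaments of smooth muscle, caldesmon acts with tropomyosin to restrain myosin until calcium signals relieve it. Myl6 is a light chain of smooth-muscle and non-muscle myosin II, alpha-actinin crosslinks actin filaments, and vinculin ties them to the membrane at adhesions. In rat smooth-muscle cells the RNA-binding protein RBPMS favours muscle splice forms, and PTBP1 represses several muscle exons.

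Total estimated counts per library ran from 1573700 to 2706885, of which the 7 genes took 0.161% to 0.485%. Several library measures moved with the groups. The 12 smooth-muscle markers summed to 6163, 9674 and 10405 CPM (counts scaled to a common library total) in the propyzamide libraries, against 549 and 3637 CPM in the vehicle libraries. None of these 12 genes passed the edgeR test at an adjusted p of 0.05, although 10 had an unadjusted p under 0.05, DESeq2 called 3 and limma 5 or 0, depending on the pseudocount. Over all 12024 genes tested 18.2% had an unadjusted p under 0.05, DESeq2 called 2.28% of those it tested, and limma called 4.08% with a pseudocount of 1 and 2.3% with 0.1. Receptor genes of smell and pheromone sensing (olfactory and vomeronasal) held 263, 2713 and 999.6 CPM in propyzamide, against 5308 and 4064 CPM in vehicle, computed without rRNA-like and mitochondrial genes. Among 5971 genes with coding and non-coding transcripts and at least 10 counts in every library, the median share of TPM (scaled likewise after division by transcript length) held by non-coding transcripts was 16.1%, 10.1% and 12.4% in propyzamide, against 25.7% and 27.2% in vehicle. Each group also carried 1 second index sequence, with 0 shared, so that index and treatment cannot be told apart. Epithelial markers summed to 6589 to 8853 CPM in propyzamide and 5966 to 6978 CPM in vehicle. Of the 11 striated-muscle markers Tnnc2 was at 0 in all libraries, and the list summed to 20.7 to 51.8 CPM in propyzamide and 18.2 to 33.0 CPM in vehicle.

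The groups' muscle-form shares did not overlap for Tpm1, Cald1 and Actn1, overlapped for Myl6 and Pkm, and had too few muscle-form counts to be compared for Tpm2 and Vcl. Their directions differed: the Tpm1 muscle form held more of its gene in propyzamide, and the muscle forms of Cald1 and Actn1 held less. With 3 libraries against 2 there are 10 assignments, and the exact two-sided permutation test cannot go below p = 0.1. Shares of single transcripts did not overlap between the groups for 31.4% of the 9678 transcripts tested across the series. That is the nearest background for these 3 genes, but not the same measure. The form shares are ratios of 2 forms, and no Actn1 transcript is in that set.

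**Figure D1:**
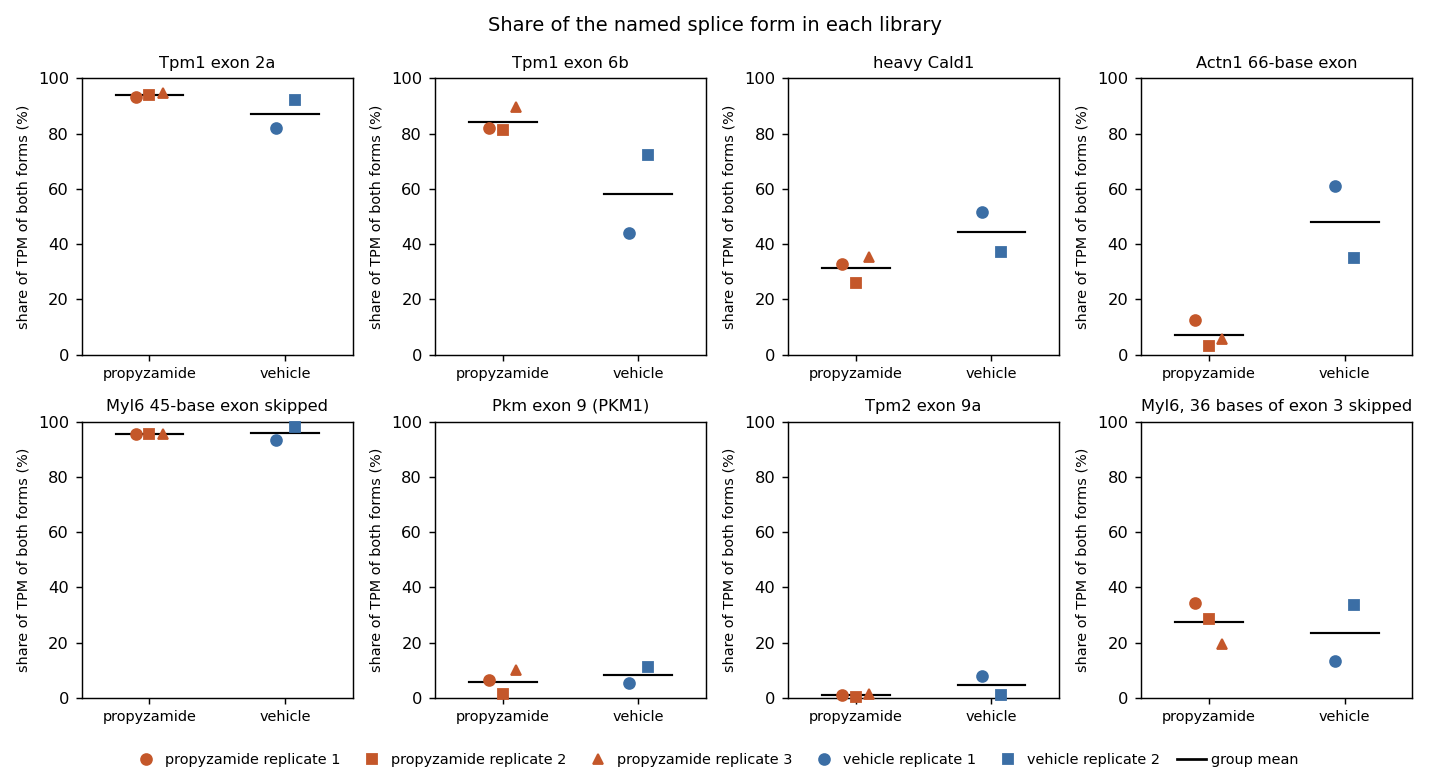
Share of each named splice form in every library, as a percent of the summed TPM of both forms of the event, with propyzamide left of vehicle, 1 point per library and a line at each group's mean. Tpm1 exon 2a and exon 6b sat higher in propyzamide, heavy Cald1 and the Actn1 66-base exon sat lower, and the other 4 events overlapped.

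Tpm1 encodes an actin-binding coiled coil, and its mutually exclusive exons 2a and 2b are its textbook muscle switch: 2a belongs to smooth muscle, 2b to non-muscle and striated cells. The gene lies on the minus strand at chr9:67022590-67049406 (GRCm38). Exon 2a (chr9:67048124-67048249) and exon 2b (chr9:67047786-67047911) are coding exons of equal length that match at 60 bases (47.6%). They are shown because this switch sorts the transcripts into the forms compared. The shares are of whole-transcript TPM, not of reads on the exons alone. Capitals mark the bases that differ, and the sequences are from GENCODE M21 transcripts.
Tpm1 exon 2a: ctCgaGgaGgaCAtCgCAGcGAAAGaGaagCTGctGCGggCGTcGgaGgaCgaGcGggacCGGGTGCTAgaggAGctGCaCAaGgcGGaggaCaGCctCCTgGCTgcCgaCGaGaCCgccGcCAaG
Tpm1 exon 2b: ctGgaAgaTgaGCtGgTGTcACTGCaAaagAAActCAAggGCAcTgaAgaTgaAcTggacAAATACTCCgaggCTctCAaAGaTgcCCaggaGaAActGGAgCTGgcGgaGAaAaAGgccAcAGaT

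Exon 2a held 93.2%, 93.9% and 94.6% of the TPM of both forms in the propyzamide libraries, against 82.2% and 92.3% in the vehicle libraries. The smooth-muscle exon was thus the main form in every library, and the groups did not overlap. The means were 93.9 ± 0.69% (SD, n = 3) in propyzamide and 87.2 ± 7.14% (SD, n = 2) in vehicle, a difference of 6.66 points (exact permutation p = 0.1). It rested on the vehicle library of replicate 1, without which the difference was 1.61 points, and on non-coding transcripts with exon 2b. With protein-coding transcripts alone the shares averaged 96.8% in propyzamide and 96.1% in vehicle, a difference of 0.71 points (exact permutation p = 0.4), and the groups overlapped. Non-coding transcripts, counted with targets of nonsense-mediated decay, held 7.42%, 16.5% and 4.66% of Tpm1 TPM in propyzamide, against 31.6% and 11.5% in vehicle. Among them Tpm1-220 and Tpm1-221 count as neither form and enter no exon 2 share. The coding-only comparison therefore covers the part of Tpm1-217, Tpm1-218 and Tpm1-219 alone.

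The edgeR fit of the forms set the exon 2b form at a log2 difference of -0.60 ± 0.79 (SE) against its gene, with an adjusted p of 0.99990. This form was tested in place of exon 2a because the rarer form of each gene differs most from the gene's total.

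Exon 6 of Tpm1 separated the groups by more than exon 2. Exon 6b held 82.1%, 81.3% and 89.6% of the TPM of both forms in propyzamide, against 44.0% and 72.2% in vehicle, so the lowest propyzamide library stood above both vehicle libraries. The means were 84.3 ± 4.62% in propyzamide (SD, n = 3) and 58.1 ± 20.01% in vehicle (SD, n = 2; exact permutation p = 0.1). The difference stayed at 23.3 points with protein-coding transcripts alone, against 26.2 points with all. It was 12.1 points without the vehicle library of replicate 1 and 40.4 points without that of replicate 2. The long first exon 1a, which gives the high-molecular-weight tropomyosins, held 82.9%, 75.9% and 93.1% in propyzamide, against 49.7% and 90.8% in vehicle. There the groups overlapped, and the vehicle library of replicate 1 stood alone at the bottom. The last exon 9d held 92.1%, 94.3% and 94.4% in propyzamide, against 85.0% and 92.9% in vehicle, again with overlap.

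Single Tpm1 transcripts showed where these exon shares came from. Tpm1-215, the smooth-muscle coding transcript that joins exons 1a, 2a, 6b and 9d, made up 63.3%, 67.0% and 77.9% of the gene in propyzamide, against 12.4% and 59.6% in vehicle. It was the leading Tpm1 transcript in all 5 libraries except the vehicle library of replicate 1. Tpm1-214, which differs from it by exon 6a, made up 12.2%, 3.61% and 8.61% in propyzamide, against 27.1% and 20.8% in vehicle. Tpm1-220, which is annotated as a target of nonsense-mediated decay, made up 3.17%, 13.2% and 0% in propyzamide, against 21.6% and 3.59% in vehicle. None of the 12 Tpm1 transcripts tested for usage reached an adjusted p of 0.05, and the smallest unadjusted p, 0.0965, belonged to Tpm1-214 (log2 difference against the gene -1.59 ± 0.94).

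**Figure D2:**
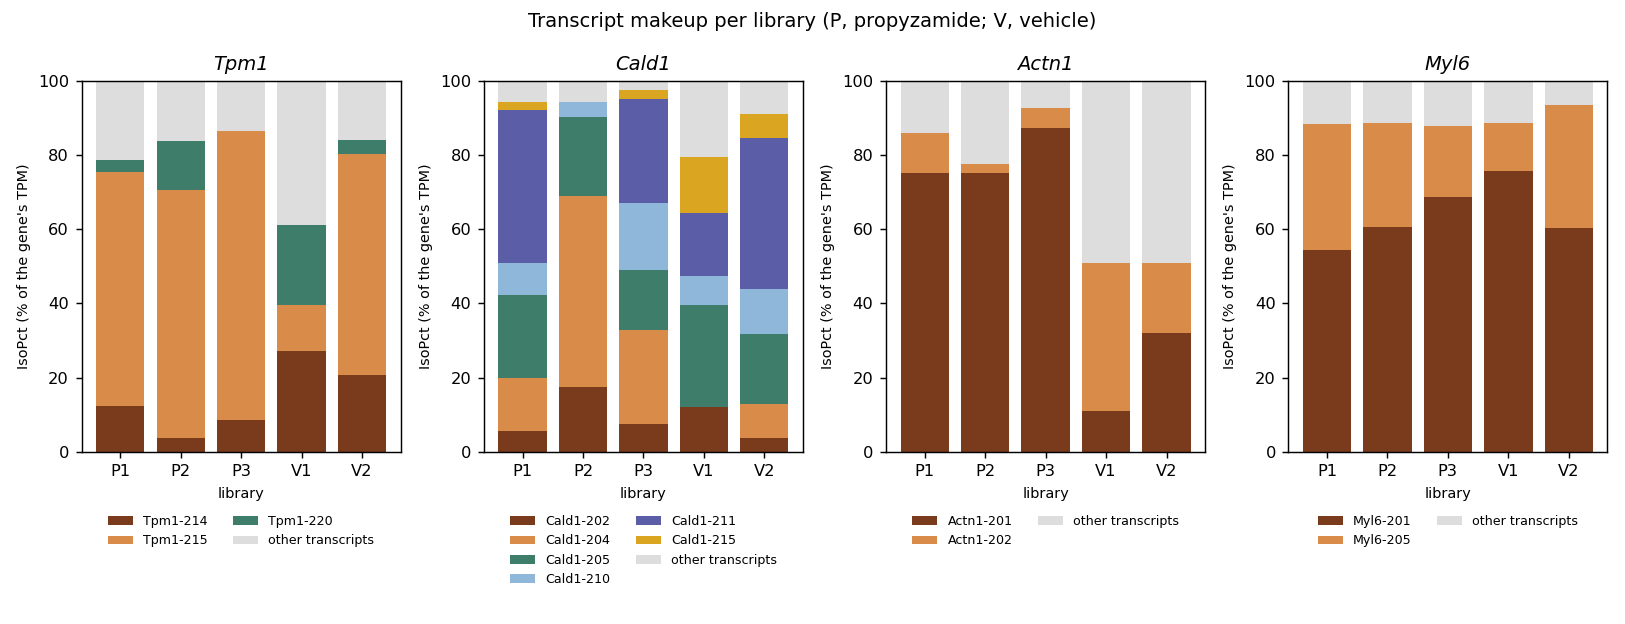
Percent of each gene's TPM (the authors' IsoPct) in each library for the named transcripts of Tpm1, Cald1, Actn1 and Myl6, as stacked bars from 0 to 100 with the propyzamide libraries (P) left of the vehicle libraries (V). Tpm1-215 is the largest Tpm1 block except in V1, Actn1-201 is the largest Actn1 block in the propyzamide libraries, and grey blocks (other transcripts) are larger for Actn1 in vehicle.

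Tpm2 encodes the beta tropomyosin, in which skeletal muscle uses exon 6b and smooth muscle and other cells use exon 6a. It is on the minus strand at chr4:43514711-43523765. The pair is shown because the transcript with exon 6b, Tpm2-202, had 0 counts. Exon 6a (chr4:43519003-43519078) and exon 6b (chr4:43518644-43518719) have 76 bases each and match at 41, with differing bases in capitals.
Tpm2 exon 6a: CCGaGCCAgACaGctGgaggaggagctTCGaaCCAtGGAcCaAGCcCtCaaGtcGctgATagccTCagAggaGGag
Tpm2 exon 6b: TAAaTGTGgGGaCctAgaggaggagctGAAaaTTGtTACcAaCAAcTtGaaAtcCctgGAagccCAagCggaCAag

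Tpm2-202, the transcript with the skeletal exon 6b, had 0 counts in all 5 libraries. Whole transcripts with exon 6a had 1147, 1371 and 1262 counts in propyzamide, against 126.1 and 667 in vehicle. Reads on the exons alone were not counted. If every transcript read told the forms apart, 0 counts would allow a skeletal share of up to 0.262%, 0.219% and 0.238% in propyzamide. The same limits would be 2.38% and 0.450% in vehicle, for counting error only. Reads that cannot separate exons 6a and 6b make the true limits wider. At the other end of the gene the skeletal last exon 9a held 1.08%, 0.36% and 1.26% of TPM in propyzamide, against 7.95% and 1.12% in vehicle. The groups overlapped, and the vehicle library of replicate 1 was the highest, on 19.3 counts. Tpm2-203, the smooth-muscle and non-muscle transcript with exons 6a and 9d, made up 96.7%, 97.8% and 96.7% of the gene in propyzamide, against 89.7% and 96.4% in vehicle. In the usage test the log2 difference of Tpm2-203 against the gene was 0.04 ± 0.73 (edgeR adjusted p = 0.99988).

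Cald1 makes heavy caldesmon in smooth muscle and light caldesmon elsewhere, by a choice of donor site within 1 coding exon. The heavy form uses the whole exon of 1021 bases and the light form its first 397, so that 624 bases of the central spacer are heavy only. Cald1 occupies chr6:34598500-34775473 on the plus strand. The 150 bases at chr6:34745986-34746135 are shown because they span the light donor site, and capitals mark bases that only the heavy form keeps.
Cald1 around the light donor: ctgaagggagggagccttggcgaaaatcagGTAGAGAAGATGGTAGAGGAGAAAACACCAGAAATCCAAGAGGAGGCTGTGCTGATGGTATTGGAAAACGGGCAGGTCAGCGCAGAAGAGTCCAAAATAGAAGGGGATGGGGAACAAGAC

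Heavy caldesmon held 33.0%, 25.9% and 35.2% of the TPM of both forms in propyzamide, against 51.5% and 37.3% in vehicle. Light caldesmon was the larger form in all libraries but 1, the vehicle library of replicate 1, and the groups did not overlap. The means were 31.4 ± 4.88% in propyzamide (SD, n = 3) and 44.4 ± 10.1% in vehicle (SD, n = 2), a difference of -13.01 points (exact permutation p = 0.1). Without the vehicle library of replicate 1 it was -5.90 points. By share of counts, which favours the longer heavy transcripts, the values were 48.7%, 26.4% and 36.2% in propyzamide, against 63.4% and 52.0% in vehicle (exact permutation p = 0.2). Both forms were at a higher level in propyzamide: heavy transcripts summed to 59.5, 30.1 and 66.3 TPM, against 9.88 and 26.1 TPM in vehicle, and light transcripts to 121, 86.1 and 122 TPM, against 9.31 and 44.0 TPM in vehicle.

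The division among Cald1 transcripts was uneven even within a group. The heavy transcript Cald1-205 made up 22.2%, 21.4% and 16.0% of the gene in propyzamide, against 27.4% and 18.9% in vehicle. The light transcript Cald1-204 made up 14.5%, 51.4% and 25.4% in propyzamide, against 0% and 8.97% in vehicle, without overlap. Cald1-211, a light fragment of 956 bases whose annotation is incomplete, ranged over 41.3%, 0% and 28.0% in propyzamide, against 16.98% and 40.7% in vehicle. Incomplete transcripts as a whole held 50.02%, 4.04% and 46.2% of Cald1 TPM in propyzamide, against 24.9% and 55.1% in vehicle. With complete transcripts alone heavy caldesmon held 50.8%, 22.7% and 31.5% in propyzamide, against 62.7% and 55.3% in vehicle, an alternative chosen after the data were seen. Heavy was then the larger form in both vehicle libraries and in 1 propyzamide library, and the difference was -24.0 points (exact permutation p = 0.2).

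The remaining named Cald1 transcripts were Cald1-202, a light transcript at 5.56%, 17.5% and 7.58% in propyzamide and 12.0% and 3.82% in vehicle, Cald1-210 and Cald1-215. Cald1-210, a heavy fragment, made up 8.70%, 4.03% and 18.2% in propyzamide, against 7.96% and 12.2% in vehicle. Cald1-215, annotated as a retained intron, made up 2.03%, 0% and 2.41% in propyzamide, against 15.0% and 6.57% in vehicle. All non-coding Cald1 transcripts together held 6.17%, 1.66% and 3.03% in propyzamide, against 31.3% and 10.7% in vehicle. In the form fit the heavy form's log2 difference against its gene was -0.59 ± 0.83 (edgeR adjusted p = 0.99990). None of the 7 Cald1 transcripts tested passed.

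Myl6 switches its carboxyl terminus: smooth muscle skips an exon of 45 bases, and non-muscle cells include it and end the protein there. The gene lies on the minus strand at chr10:128490860-128494145. The exon (chr10:128491720-128491764) is shown with the stop codon that ends the non-muscle protein in capitals.
Myl6 45-base exon: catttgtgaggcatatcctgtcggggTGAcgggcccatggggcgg

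The skipped, smooth-muscle form held 95.4%, 95.5% and 95.5% of the TPM of both forms in propyzamide, against 93.5% and 98.2% in vehicle. The 3 propyzamide libraries lay between both vehicle libraries. The means were 95.5 ± 0.076% in propyzamide (SD, n = 3) and 95.8 ± 3.36% in vehicle (SD, n = 2; exact permutation p = 0.7), and the sign of the difference turned without the vehicle library of replicate 2. The non-muscle form Myl6-206 had 119, 209 and 100.2 counts in propyzamide, against 47.2 and 20.1 in vehicle. In the form fit its log2 difference against the gene was 0.42 ± 0.71 (edgeR adjusted p = 0.99990).

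Another Myl6 event was described after its values were seen. Myl6-205, which lacks 36 bases of exon 3 and keeps the smooth-muscle end, made up 34.0%, 28.0% and 19.1% of the gene in propyzamide, against 13.01% and 33.1% in vehicle. Myl6-201, which has exon 3 whole and the same end, made up 54.5%, 60.5% and 68.8% in propyzamide, against 75.6% and 60.3% in vehicle. For both transcripts the groups overlapped, and the range within each group was wider than the gap between the group means. Myl6-210 and Myl6-211 had counts in the propyzamide libraries only. The non-coding Myl6-210 had 9.76, 70.1 and 12.0 counts in propyzamide, against 0 and 0 in vehicle. The coding Myl6-211 had 44.1, 35.6 and 18.3 counts in propyzamide, against 0 and 0 in vehicle. Both passed the filter on low counts only through the group in which they were high, so their tests are not read as a result. Non-coding transcripts as a whole held 4.50%, 6.37% and 6.17% of Myl6 TPM in propyzamide, against 3.66% and 4.15% in vehicle.

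Actn1 chooses between exons in a calcium-binding EF hand: smooth muscle uses an exon of 66 bases and non-muscle cells an exon of 81 bases, and the non-muscle protein is the calcium-sensitive one. Actn1 occupies chr12:80167547-80260371 on the minus strand. The exons (chr12:80170183-80170248 and chr12:80170686-80170766) are shown because this switch had the largest difference in share among the 7 genes.
Actn1 66-base exon: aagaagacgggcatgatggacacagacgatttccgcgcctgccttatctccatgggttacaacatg
Actn1 81-base exon: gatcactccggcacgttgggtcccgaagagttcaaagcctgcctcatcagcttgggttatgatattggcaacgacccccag

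The 66-base smooth-muscle exon held 12.7%, 3.27% and 5.67% of the TPM of both forms in propyzamide, against 61.0% and 34.9% in vehicle. The groups did not overlap, and the smooth-muscle form was the rarer in 4 of the 5 libraries. The means were 7.20 ± 4.87% in propyzamide (SD, n = 3) and 48.0 ± 18.5% in vehicle (SD, n = 2), a difference of -40.8 points (exact permutation p = 0.1). It was -27.7 points without the vehicle library of replicate 1 and -53.8 points without that of replicate 2.

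Few reads stood behind these shares. The smooth-muscle form had 10.54, 1.23 and 1.79 estimated counts in propyzamide, against 27.0 and 9.43 in vehicle, and the non-muscle form had 104, 51.8 and 42.0 in propyzamide, against 14.02 and 23.3 in vehicle. By counts the smooth-muscle share was 9.21% (Wilson 95% interval 5.43% to 16.3%), 2.32% (0.334% to 9.94%) and 4.09% (1.26% to 15.1%) in propyzamide, against 65.8% (50.5% to 78.4%) and 28.8% (15.6% to 45.4%) in vehicle. The intervals cover counting error only, and that of the vehicle library of replicate 2 met that of the propyzamide library of replicate 1. The smooth-muscle form did not pass the filter on low counts, so the form fit gave Actn1 no test. It entered the fit under 4 alternatives, and those that kept both vehicle libraries did not call it. Without a filter its log2 difference against the gene was -2.89 ± 1.55 (edgeR unadjusted p = 0.0623, adjusted p = 0.627). With rRNA-like and mitochondrial genes removed the edgeR unadjusted p was 0.0370 (adjusted p = 0.770), and with protein-coding transcripts alone 0.0491 (adjusted p = 0.852). Without the vehicle library of replicate 2 the log2 difference was -3.41, with no p-value given, since a lone vehicle library has no spread.

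The transcripts of the Actn1 forms also differ outside the exons shown: 66 bases belong to the smooth-muscle form alone and 1405 to transcripts of the non-muscle form alone. Of the 2664 annotated bases of Actn1-202, 2661 are coding, against 2676 of 3734 for Actn1-201. Reads from untranslated ends therefore cannot be assigned to the smooth-muscle form, whichever exon was used. Their part in the shares was not tested. Actn1-201, the full non-muscle transcript, made up 75.1%, 75.2% and 87.4% of the gene in propyzamide, against 11.1% and 32.0% in vehicle. Actn1-202, the smooth-muscle transcript, made up 10.9%, 2.55% and 5.32% in propyzamide, against 40.0% and 19.0% in vehicle. Non-coding transcripts made up 13.97%, 22.3% and 7.32% in propyzamide, against 49.0% and 48.9% in vehicle, on very few counts: Actn1-203, a retained intron of 449 bases, made up 28.5% and 36.4% of the gene in vehicle on 2 counts in each library, and is named after its values were seen. Vehicle libraries thus had more smooth-muscle Actn1 form while their smooth-muscle markers summed to less. With protein-coding transcripts alone the smooth-muscle share averaged 7.20% in propyzamide and 57.8% in vehicle, a difference of -50.6 points (exact permutation p = 0.1). That setting takes out only Actn1-206, a retained intron of the non-muscle form. Actn1-206 had 0 counts in propyzamide and 3.31 and 0.56 in vehicle, so the difference could not shrink. The other non-coding Actn1 transcripts count as neither form and enter no share, and their part was not tested. The higher receptor-gene counts of the vehicle libraries moved with the Actn1 share too, and their part in it was not tested.

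**Figure D3:**
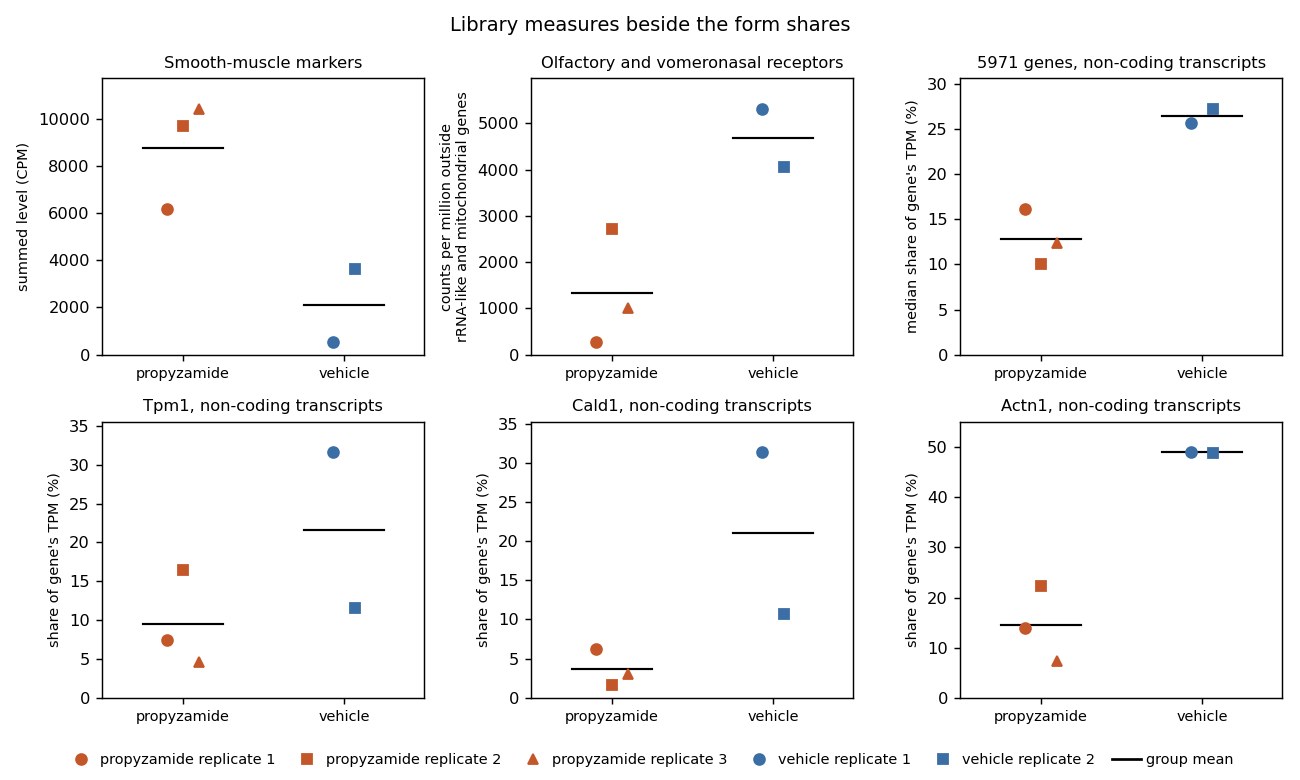
Library measures beside the shares, each panel from 0, with propyzamide left of vehicle, 1 point per library and a line at each group's mean. Smooth-muscle markers were higher in the propyzamide libraries, and receptor-gene counts and the median non-coding share over 5971 genes were higher in the vehicle libraries, as was the non-coding share of Cald1 and Actn1, whereas that of Tpm1 overlapped. Of the 5971 genes, 22.3% had a lower non-coding share in propyzamide without overlap, and 6.13% a higher one.

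Vcl encodes vinculin and, with an extra exon used in muscle, metavinculin. The gene lies on the plus strand at chr14:20929398-21033676. The annotation holds the exon in Vcl-202 only, a coding fragment of 446 bases that carries 135 bases of it at chr14:21027083-21027217, shown because all evidence for the muscle form rests on them.
Vcl metavinculin exon, annotated bases: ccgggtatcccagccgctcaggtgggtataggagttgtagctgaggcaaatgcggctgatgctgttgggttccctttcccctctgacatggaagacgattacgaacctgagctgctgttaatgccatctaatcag

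The fragment had 1.17, 1.06 and 0 estimated counts in propyzamide, against 0 and 0 in vehicle. Vinculin (Vcl-201) had 306, 242 and 136 counts in propyzamide, against 92.7 and 94.2 in vehicle, and made up 87.1% to 95.2% of the gene in propyzamide and 90.4% to 94.2% in vehicle. No share of metavinculin is given, since reads outside these bases are shared with vinculin and a full-length metavinculin transcript is not in the annotation used. The last Vcl exon shares 2090 bases with Ap3m1 on the other strand, which had 686 counts over the 5 libraries, and the sources used here do not say whether counting used strand.

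Pkm encodes pyruvate kinase, which muscle makes with exon 9 (PKM1) and most other tissues with exon 10 (PKM2), an enzyme under allosteric control. Pkm occupies chr9:59656368-59679375 on the plus strand. Exons 9 (chr9:59675029-59675195) and 10 (chr9:59675568-59675734) are of equal length and match at 103 bases (61.7%), with differing bases in capitals. They are shown as the best-known target of PTBP1 among these genes.
Pkm exon 9: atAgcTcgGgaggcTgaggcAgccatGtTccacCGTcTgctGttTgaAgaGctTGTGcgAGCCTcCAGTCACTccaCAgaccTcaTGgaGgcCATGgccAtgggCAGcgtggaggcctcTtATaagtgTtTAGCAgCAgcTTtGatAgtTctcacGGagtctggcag
Pkm exon 10: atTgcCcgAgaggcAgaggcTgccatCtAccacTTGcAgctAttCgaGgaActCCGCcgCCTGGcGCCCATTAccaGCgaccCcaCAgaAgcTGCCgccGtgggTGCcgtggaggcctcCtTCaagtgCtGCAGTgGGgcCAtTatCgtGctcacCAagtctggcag

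PKM1 held 6.36%, 1.25% and 9.96% of the TPM of both forms in propyzamide, against 5.38% and 11.0% in vehicle. PKM2 was the main form in every library, and the groups overlapped. The means were 5.86 ± 4.38% in propyzamide (SD, n = 3) and 8.21 ± 3.997% in vehicle (SD, n = 2; exact permutation p = 0.5), with the sign turning without the vehicle library of replicate 2. PKM1 had 81.2, 7.37 and 80.5 counts in propyzamide, against 37.2 and 64.3 in vehicle. In the form fit its log2 difference against the gene was -0.36 ± 0.89 (edgeR adjusted p = 0.99990). Pkm-201, the PKM2 transcript, made up 88.1%, 96.6% and 86.4% of the gene in propyzamide, against 88.9% and 85.7% in vehicle.

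No form of the 4 genes and no transcript of the 5 genes that could be tested passed. Actn1 and Vcl had no transcript tested for usage, and Tpm2, Actn1 and Vcl no form. The edgeR form fit called 0 of the 4 genes tested (Tpm1, Cald1, Myl6 and Pkm), with 0 at an unadjusted p under 0.05, beside 0 of 9651 features in all (0%). Limma also called 0 of the 4. The edgeR usage test called 0 of 35 member transcripts, beside 0 of 9678 transcripts in all (0%). The 2 at an unadjusted p under 0.05 were Myl6-210 and Myl6-211, which had 0 counts in both vehicle libraries. Both passed the filter only through the propyzamide group, so these 2 are not read as a result. At an unadjusted p under 0.05 stood 6.02% of all transcripts. Limma's diffSplice called 0 of the 35 at both pseudocounts, with 3 at an unadjusted p under 0.05, beside 14.3% or 14.4% of all, and called 148 or 243 of the 9678 (1.53% or 2.51%). Shares of 14 of the 35 did not overlap between the groups, 6 higher and 8 lower in propyzamide, which is 40% beside 31.4% of all transcripts. Myl6-210 and Myl6-211 are among the 6 that were higher. Standard errors of the log2 differences of the 35 ran from 0.61 to 2.55, with a median of 1.25.

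None of the 7 summed gene levels passed the edgeR test. All 7 genes had a positive log2 difference in edgeR, beside 49.1% of all genes, although Actn1 turned negative on the TPM scale, and the libraries did not overlap for 6 of them, Pkm being the exception, beside 16.7% of the 12024 genes tested that were higher in propyzamide without overlap. The median log2 difference of the 7 was 1.52, against -0.018 over all genes tested. The edgeR test called 0 of the 7, with 5 at an unadjusted p under 0.05 (beside 18.2% of all genes), beside 229 of 12024 genes called (1.9%), 83 higher (0.69%) and 146 lower (1.21%). Upper-quartile scaling moved that split to 79 higher and 235 lower. DESeq2 called Tpm1, Cald1 and Myl6, beside 2.28% of the genes it tested, and limma on TPM called 0, beside 4.08% or 2.3%. With either vehicle library left out, all 7 log2 differences stayed positive in edgeR. No call is given there, since a lone vehicle library has no spread of its own. In colon pieces, fewer cells of a type and less RNA per cell cannot be told apart.

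Cald1 averaged 546 ± 114 CPM in propyzamide (SD, n = 3) and 127 ± 119 CPM in vehicle (SD, n = 2), with single libraries at 417, 586 and 634 CPM in propyzamide, against 43.4 and 211 CPM in vehicle. Its log2 fold change was 2.10 ± 0.59 (edgeR adjusted p = 0.0786). Tpm1 stood at 1213, 1827 and 2005 CPM in propyzamide, against 227.1 and 656 CPM in vehicle, a log2 fold change of 1.93 ± 0.55 (edgeR adjusted p = 0.0848). In both genes the vehicle library of replicate 1 was the lowest by a wide margin. Myl6 stood at 886, 2417 and 1386 CPM in propyzamide, against 309 and 628 CPM in vehicle (log2 fold change 1.74 ± 0.56, edgeR adjusted p = 0.122). Tpm2 stood at 402, 722 and 790 CPM in propyzamide, against 53.8 and 392 CPM in vehicle (log2 fold change 1.52 ± 0.67, edgeR adjusted p = 0.251), so its groups lay close at their edges.

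**Figure D4:**
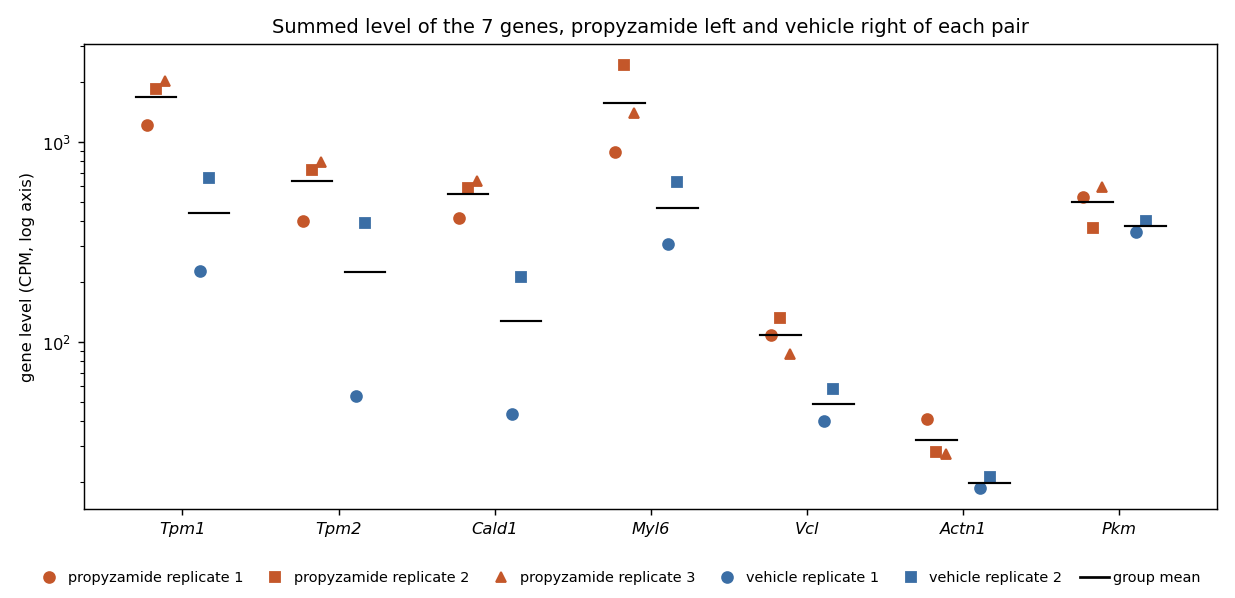
Summed level of each gene in CPM on a log axis, with the propyzamide libraries left of the vehicle libraries in each pair, 1 point per library and a line at each group's mean. All genes but Pkm had every propyzamide library above every vehicle library, with the widest gaps between vehicle libraries in Tpm2 and Cald1.

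The adhesion and crosslinking genes differed by less. Vcl stood at 108, 131 and 86.4 CPM in propyzamide, against 40.1 and 57.9 CPM in vehicle (log2 fold change 1.15 ± 0.37, edgeR adjusted p = 0.121). Actn1 stood at 41.1, 28.2 and 27.4 CPM in propyzamide, against 18.6 and 20.99 CPM in vehicle (log2 fold change 0.71 ± 0.39, edgeR adjusted p = 0.360). On the per-length scale Actn1 went the other way, at 13.96, 7.86 and 6.28 TPM in propyzamide, against 18.4 and 8.54 TPM in vehicle, a scale on which short transcripts weigh more. Limma on log2(TPM + 1) accordingly gave it -0.46. Pkm stood at 531, 371 and 592 CPM in propyzamide, against 353 and 403 CPM in vehicle (log2 fold change 0.40 ± 0.39, edgeR adjusted p = 0.645).

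The genes whose CPM profiles over the 5 libraries lay nearest to each member differed from member to member. The measure was the root mean square difference of centred log2 CPM. Nearest to Cald1 were Cnn1 at 0.094 and Synpo2 at 0.11, both smooth-muscle actin-binding proteins, and nearest to Tpm2 were Flna at 0.18 and the smooth-muscle actin Acta2 at 0.20. Nearest to Tpm1 were Fxyd6 at 0.19 and Pitpna at 0.21, and to Myl6 Atp11a at 0.073 and Clmp at 0.083. Nearest to Vcl were Usmg5 and Pls1 at 0.11 each, to Actn1 Syk at 0.030 and Eif4g1 at 0.12, and to Pkm Cox4i1 at 0.046 and Preb at 0.065.

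Of 28 splicing regulators listed, 22 were tested and edgeR called 0, with 6 at an unadjusted p under 0.05 (beside 18.2% of all genes), whereas DESeq2 called 1 of 27 (beside 2.28% of all) and limma 0. Of the 22, 16 had a positive log2 difference, beside 49.1% of all genes, with a median of 0.47 against -0.018 over all genes. Qk, the RNA-binding protein quaking, stood at 17.3, 31.3 and 35.3 CPM in propyzamide, against 6.204 and 6.25 CPM in vehicle (log2 fold change 2.15 ± 0.50, edgeR adjusted p = 0.0501). Rbpms, the smooth-muscle splicing activator, stood at 31.9, 86.2 and 48.7 CPM in propyzamide, against 8.69 and 27.2 CPM in vehicle (log2 fold change 1.65 ± 0.55, edgeR adjusted p = 0.138). Srsf1 had a log2 fold change of 1.06 ± 0.34 and Celf1 of 1.03 ± 0.35, with edgeR adjusted p = 0.124 and 0.141. The repressor Ptbp1 stood at 90.8, 33.7 and 52.0 CPM in propyzamide, against 94.3 and 48.3 CPM in vehicle (log2 fold change -0.27 ± 0.45, edgeR adjusted p = 0.810), and the groups overlapped. Ptbp1 is given as a repressor of several muscle exons, outside the rule for named genes, and was chosen after its value was seen.

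Of 35 other genes known for muscle splice forms, 27 could be tested for usage, with 89 transcripts. The edgeR usage test called 0 of the 89 and 6 stood at an unadjusted p under 0.05 (beside 6.02% of all), and limma called 0. Shares of 27 of the 89 transcripts did not overlap, 30.3% beside 31.4% of all. At the gene level edgeR called 0 of the 35, with 15 at an unadjusted p under 0.05 (beside 18.2% of all genes), DESeq2 called 4 (beside 2.28% of all), and limma 2 or 0 (beside 4.08% or 2.3% of all). Of these 35 genes 28 had a positive log2 difference, with a median of 0.61. Nexn, an actin-binding protein of muscle, had a log2 fold change of 2.30 ± 0.62, Slmap of 1.69 ± 0.46 and fibronectin (Fn1) of 1.81 ± 0.51, with edgeR adjusted p = 0.0712, 0.0748 and 0.0785. Ttn, the giant sarcomere protein titin, went the other way, at 3.06, 13.3 and 8.52 CPM in propyzamide, against 48.0 and 30.1 CPM in vehicle (log2 fold change -2.27 ± 0.54, edgeR adjusted p = 0.0504).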

How the data were processed

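The data are 5 RNA-seq libraries of mouse colon, made by the SMART-Seq2 method per the labels' protocols. Per the file headers, each deposited RSEM table gives for every transcript the authors' expected count (an estimated count), its TPM and its percent of the gene's TPM (IsoPct). RSEM, kallisto and GRCm38 are named without versions per the submitters' processing notes. The sources used here do not give the annotation release, the alignment settings or the use of strand. All 81 member transcripts had the length that GENCODE M21 gives, and forms were read from its exon structures. RSEM divides reads among overlapping transcripts, an error that no interval here covers.

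Expected counts were rounded and fitted with edgeR 4.0.16 (R 4.3.3; filterByExpr, TMM, quasi-likelihood, Benjamini-Hochberg over all features, threshold 0.05), with group as the only term. Genes were tested by glmQLFTest on summed counts. Transcripts, and the 2 forms per gene, were tested by diffSpliceDGE against their gene's fold change, with all other genes kept in the fit. For the forms the result of the rarer form is given. SE values were taken from the F statistics. Library sizes for CPM were scaled by TMM factors, so that 1 count equals 0.340 to 0.609 CPM. Form shares are percent of TPM, with SD, and were compared by exact permutation over the 10 assignments of libraries. Wilson 95% intervals (SciPy 1.17.1) use rounded counts, and floors of 3 counts and intervals cover counting error only, since the reads carry no molecular identifiers.

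The members, lists and tests were chosen with earlier results of these data known. All 7 genes are named, with transcripts that reached a mean IsoPct of 10 in either group and 10 summed counts (16 of 81), up to 4 genes of smallest p per list, and the 2 nearest profiles per gene (average log2 CPM of at least 5). The fits were tested on simulated data, but their power to find a usage difference of a given size is not given here. Alternatives were other scalings and filters, a replicate block, each library left out, gene classes removed, protein-coding or complete transcripts only, limma 3.58.1 on log2(TPM + 1) and log2(TPM + 0.1), DESeq2 1.42.0, and a threshold of 0.1. No pair of libraries was a duplicate (chi-square per degree of freedom 16.0 to 48.1).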

Additional observations from a re-analysis of the deposited data

How the results depend on the processing

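No member transcript or form that could be tested passed under any alternative, and only gene levels did. Of the 7 gene levels, 4 passed without a filter on low counts, 4 with a replicate block and 3 with DESeq2. At a threshold of 0.1 there were 2 (Tpm1 and Cald1), and with any propyzamide library left out 0. Among all genes, 1327 passed without a filter, 148 with at least 10 CPM in 2 libraries, 639 with a replicate block, 362 without rRNA-like and mitochondrial genes, 490 with limma on log2(TPM + 1), 385 with DESeq2, 657 at a threshold of 0.1 and 36 to 499 with a library left out. The genes tested numbered 37309 without a filter, 8407 with at least 10 CPM in 2 libraries and 11569 without rRNA-like and mitochondrial genes. They numbered 16870 with DESeq2, and 12024 in the main fit, with a replicate block, with limma and at a threshold of 0.1. The calls split into 210 higher and 175 lower with DESeq2, and 324 and 315 with a replicate block. With limma on log2(TPM + 1) the split was 66 and 424. Among all transcripts, usage calls numbered 79 of 61816 without a filter, and 148 and 243 of 9678 with limma on log2(TPM + 1) and log2(TPM + 0.1). They numbered 10 of 9678 at a threshold of 0.1, and 1 to 13 of 7040 to 8437 with a propyzamide library left out. Splicing regulators passed 3 times without a filter, 3 with a replicate block, and once each (1) without rRNA-like and mitochondrial genes, with DESeq2 and at a threshold of 0.1, with 0 to 1 with a library left out. Of the 28 regulators listed, edgeR tested 22 in the main fit and DESeq2 tested 27. Among the other muscle-spliced genes, 1 transcript passed without a filter. The cause of these shifts was not tested. Whether the replicate numbers pair the libraries cannot be told. Deviations from the group means correlated at 0.16 and 0.14 across genes in the 2 pairs of equal number. Deviations of 2 vehicle libraries mirror each other, so these values cannot decide it. The block changed no call of a form or a member transcript, but moved the gene levels called from 0 to 4 of the 7.

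Leaving out libraries moved the muscle-form difference over 1.61 to 11.7 points for Tpm1, -20.1 to -5.90 for Cald1, -53.8 to -27.7 for Actn1, -2.73 to 2.02 for Myl6 and -5.18 to 0.47 for Pkm. In the form fit the ranges were -0.52 to 1.31 for Myl6 and -0.96 to 0.28 for Pkm. Sign changes without a call occurred under limma on log2(TPM + 1) and log2(TPM + 0.1) for the level of Actn1 (-0.46 and -0.50) and the usage of Cald1-205 (0.24 and 0.23), Cald1-210 (0.13 and 0.23) and Myl6-205 (-0.44 and -1.31). With libraries left out, usage ran over -0.62 to 0.79 for Cald1-202, -1.36 to 0.22 for Cald1-210, -1.63 to 0.43 for Cald1-211, -0.24 to 0.012 for Myl6-201, -0.34 to 1.10 for Myl6-205 and -2.86 to 0.59 for Tpm1-220. Upper-quartile scaling put the median log2 difference of all genes at -0.14, against -0.018, and all 7 gene levels stayed positive under it.

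The main limits are 2 vehicle libraries that differ from each other, few counts on the Actn1 and Vcl muscle forms, incomplete annotated fragments of Cald1 and Vcl, and non-coding transcripts that take a larger share of Cald1 and Actn1 in vehicle. Such a larger non-coding share in vehicle, without overlap, was found in 22.3% of 5971 genes, and the reverse in 6.13%.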
